A study of Homo sapiens with 3 samples.

Results

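The 46 genes described here encode subunits of the SWI/SNF complexes and the other ATP-dependent chromatin remodelers: SMARCA4, SMARCA2 and 23 further SWI/SNF subunits, 6 genes of the ISWI family, 8 CHD ATPases, 5 genes of the INO80, SRCAP and EP400 family, and ATRX and HELLS. They were chosen by name, with earlier results of these data known, out of 41749 gene names with a usable probe. All 46 were on the array. Gene expression was measured in HCT116 cells, an established human colorectal carcinoma line, to ask which genes respond to loss of PRMT1, the enzyme that places asymmetric dimethylarginine on histone H4. RNA of 3 transfected cultures was hybridised to 1 array each: a negative control (NC) and 2 siRNA knockdowns of PRMT1 (PRMT1-KD1 and PRMT1-KD2). All 3 groups were the same cell line, had been transfected with Lipofectamine 3000, and lay on 1 slide read in 1 scan. The knockdowns act on a whole transfected culture, and with 1 array for each group there is neither a replicate check nor a p-value for any difference.

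Remodelers use the energy of ATP to slide, space, evict or exchange nucleosomes, and so set which DNA is open to transcription factors. SWI/SNF complexes are built around SMARCA4 (BRG1) or SMARCA2 (BRM) and exist as BAF, PBAF and a non-canonical form that share a core but carry different accessory subunits. ISWI enzymes space nucleosomes, CHD enzymes include the motor of the NuRD repressor complex, and the INO80 family exchanges histone variants such as H2A.Z. Subunits of SWI/SNF are frequently mutated in human cancers, and the study followed SMARCA4 in colorectal cancer cells as a protein bound to the PRMT1 mark. The arrays measured mRNA only, and neither the assembly nor the activity of a complex.

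The siRNA sequences given in the labels are shown because they define both knockdowns, although the labels do not say which of them made PRMT1-KD1 and which PRMT1-KD2.
PRMT1 siRNA-1: cugaaguccaggucgauggugaaguc
PRMT1 siRNA-2: uuguagucuuuguacugcc
Neither sequence, read as given or as its complement, lies within the array probe for PRMT1. That probe read 6.01 on NC, 2.75 on PRMT1-KD1 and 1.45 on PRMT1-KD2, in normalized log2 signal, which is the log2 intensity of a probe minus the 75th percentile of its array. PRMT1 thus changed by -3.26 log2 units in PRMT1-KD1 and by -4.56 in PRMT1-KD2, so both knockdown labels matched the level of their target.

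The members whose signal moved furthest or in both knockdowns were read by the following 60-base probes, of which the first 30 bases are printed. Positions are in build hg19, and whether a probe lies in coding sequence or in a UTR was not determined here.
BAZ1A (chr14:35222209-35222268, minus strand): tacacatgaatgaatccaatcttataacct
BAZ2A (chr12:56990348-56990407, minus strand): gcaattttcccttggtataagatgtgctag
BCL7B (chr7:72950766-72950825, minus strand): aaatctgcatgttgaattgaactttgtgat
SMARCD1 (chr12:50494275-50494334, plus strand): ctggaaccatgagaaggaagctcagtactt
ARID2 (chr12:46301413-46301472, plus strand): acaataagttctgcaaaaccctctcattca
EP400 (chr12:132564396-132564455, plus strand): tagatgctaccgttgacctgagttaaattc
ATRX, brightest probe (chrX:76872082-76872141, minus strand): gctgtgagaatgacttctattcagtgcaag
HELLS, brightest probe (chr10:96354481-96354540, plus strand): tagatgtcatagaattggtcagacaaagcc

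Most remodeler genes stayed within 1.5-fold of the control when PRMT1 was knocked down. In PRMT1-KD1, 12 of the 46 members were higher than NC by 1.5-fold or more and 3 were lower. In PRMT1-KD2, 6 members were higher and 5 were lower. The 6 members higher in both were SMARCD1, BCL7B, ARID2, BAZ1A, BAZ2A and EP400, and the 1 member lower in both was ATRX. No member passed 1.5-fold in opposite directions, and 27 members stayed within it in both knockdowns.

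These counts were read beside the same counts over all genes measured. The 12 raised members in PRMT1-KD1 were 26.1% of the members, against 13.2% of 19231 genes, and the 3 lowered ones were 6.52%, against 12.8%. In PRMT1-KD2, the 6 raised members were 13.0%, against 9.56% of 19421 genes, and the 5 lowered ones were 10.9%, against 10.7%. The latter share was near that of any gene. All genes measured include genes dim on 1 of the arrays compared. With only probes above background on both arrays, 26.7% of members were raised in PRMT1-KD1, against 12.5% of genes, and 6.67% were lowered, against 10.9%. In PRMT1-KD2 the raised shares were 13.0% against 8.20%, and the lowered ones 10.9% against 9.80%. PRMT1-KD1 and PRMT1-KD2 share the single NC array, which adds to the number of genes that pass in both. Past the fold the same way in both were 6 members higher (13.0%, against 5.0% of 18602 genes) and 1 member lower (2.17%, against 5.36%). The count higher in both was 3 with normexp background correction and also 3 with the percentile taken over detected probes, without a share of all genes beside it. The excess of raised members in PRMT1-KD1 depended on the processing: with the percentile taken over detected probes, 6 members (13.0%) were raised, beside 11.0% of all genes. With quantile normalization 8 (17.4%) were raised, beside 12.6%. Relative to genes of like probe GC content and brightness it was also 8 (17.4%), beside 12.2%. Median scaling went the other way, with 13 (28.3%), beside 16.5%.

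**Figure D1:**
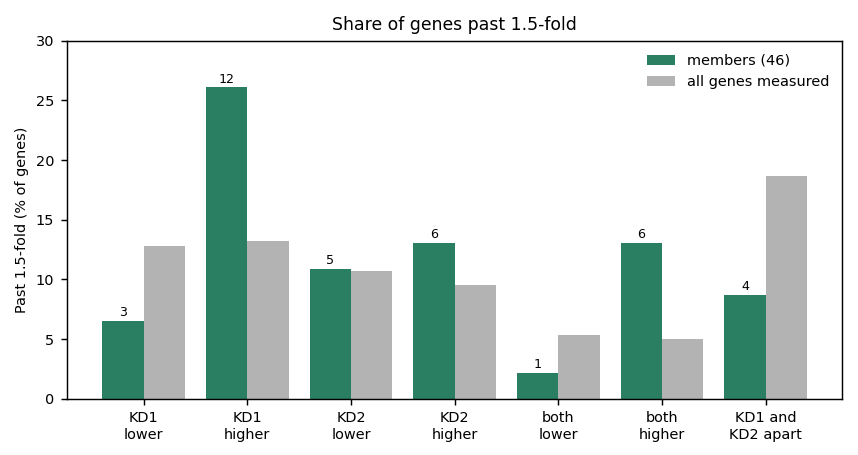
Share of the 46 members (green, with the number of members above each bar) and of all genes measured (grey) past 1.5-fold, in percent of genes, for each knockdown against NC, for both knockdowns the same way, and for PRMT1-KD1 against PRMT1-KD2. The members exceed all genes among those higher in PRMT1-KD1 (26.1% against 13.2%) and higher in both (13.0% against 5.0%), and lie below them for PRMT1-KD1 against PRMT1-KD2 (8.7% against 18.7%). All genes measured include genes not above background on every array.

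The family as a whole did not shift by much. The median change of the members was 0.02 log2 units in PRMT1-KD1 and 0.09 in PRMT1-KD2, beside -0.04 and -0.07 over 17054 genes detected on every array (above background on all 3). Members above zero numbered 26 and 27. The median size of a member's change was 0.39 in PRMT1-KD1 and 0.32 in PRMT1-KD2. It was 0.35 and 0.30 over all genes measured, and 0.33 and 0.29 over the detected genes. Between the knockdowns themselves, the median size of the difference was 0.21 for the members, 0.28 for all genes and 0.26 for the detected genes. Differing by 1.5-fold between PRMT1-KD1 and PRMT1-KD2 were 4 members (8.7%), namely DPF3, SMARCA1, BAZ1B and EP400, against 18.7% of 19544 genes. Those genes include dim ones, whereas 45 members were above background on all arrays, and the share over the detected genes was not taken.

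The counts depended on how the arrays were brought to 1 scale. Scaling to 8 spike-in probes, which does not use the signal of the genes themselves, moved the median of detected genes to 0.58 in PRMT1-KD1 and 0.23 in PRMT1-KD2. Relative to that shift the members lay where they did before, since their median exceeded that of detected genes by 0.06 in PRMT1-KD1 and 0.16 in PRMT1-KD2 under every scaling by a single factor per array. Spike-in scaling raises every change by 0.62 in PRMT1-KD1 and by 0.29 in PRMT1-KD2, so that each negative change given below that is smaller in size than this turns positive under it. Under it 31 members were past 1.5-fold higher in PRMT1-KD1, beside 49.5% of all genes, and 15 in PRMT1-KD2, beside 22.6%.

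**Figure D2:**
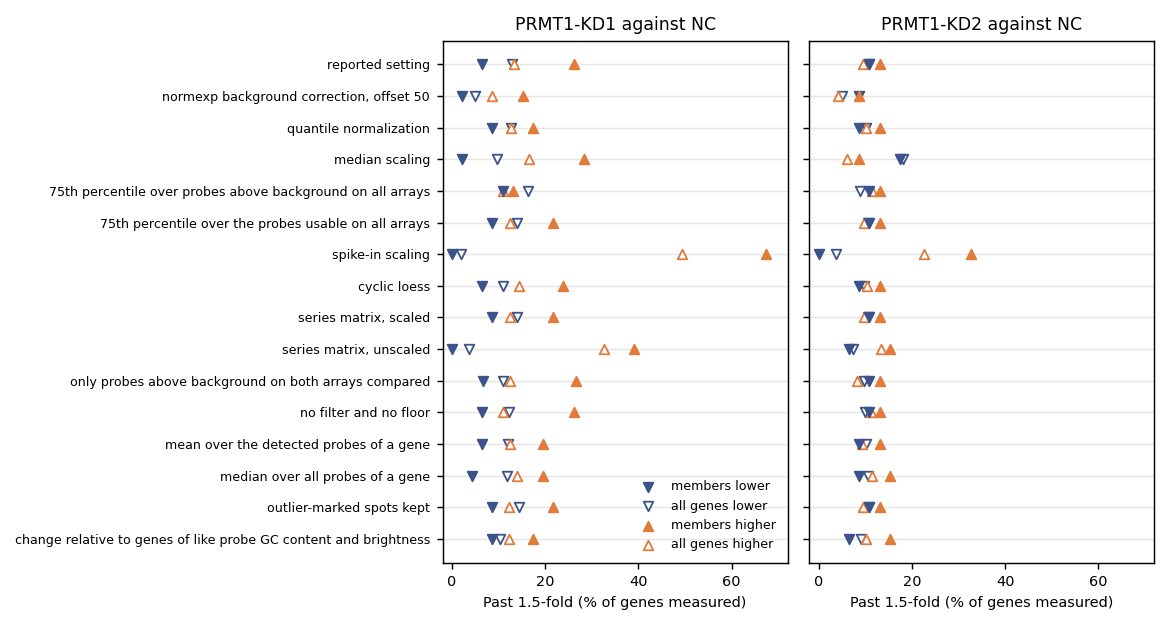
Share of the members (filled) and of all genes (open) past 1.5-fold lower (downward triangles) or higher (upward triangles), in percent of genes measured, in PRMT1-KD1 (left) and PRMT1-KD2 (right) under each way of processing the arrays. The share of raised members in PRMT1-KD1 runs from 13.0% to 67.4%, and both that share and the share of all genes are highest with spike-in scaling.

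**Figure D3:**
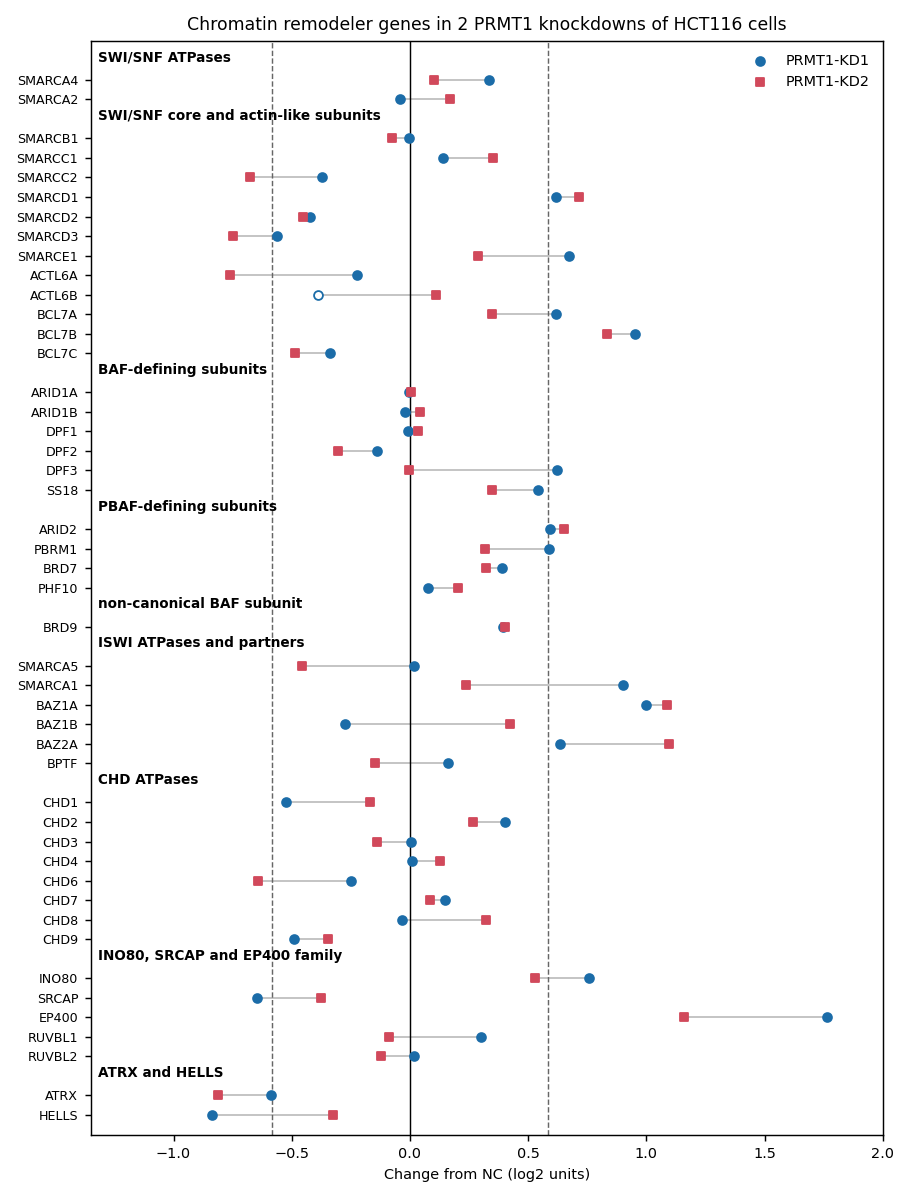
Change of each of the 46 members from NC, in log2 units, in PRMT1-KD1 (circles) and PRMT1-KD2 (squares), grouped by complex, with dashed lines at 1.5-fold in either direction. The open circle of ACTL6B marks a value limited by background. EP400, BAZ1A, BAZ2A, BCL7B, SMARCD1 and ARID2 lie beyond the right line in both knockdowns and ATRX beyond the left.

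Both SWI/SNF ATPases stayed within 1.5-fold of the control at the probe that represents the gene. SMARCA4, the motor of most SWI/SNF complexes in epithelial cells, read 6.29 on NC, 6.62 on PRMT1-KD1 and 6.39 on PRMT1-KD2. Its change was 0.33 and 0.10, on the same side of zero and within 1.5-fold. SMARCA2, the alternative motor, read -0.33, -0.37 and -0.16 at its brighter probe, a change of -0.04 and 0.17. A dimmer SMARCA2 probe changed by -0.74 in PRMT1-KD1, past 1.5-fold, and by -0.32 in PRMT1-KD2. The probes of this gene thus differed by 0.70 and 0.49 log2 units.

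The core subunits were divided, and several paralogs that fill the same place in the complex differed. SMARCD1, SMARCD2 and SMARCD3 are alternative forms of the BAF60 subunit, which links the complex to transcription factors. SMARCD1 read 3.71 on NC, 4.33 on PRMT1-KD1 and 4.43 on PRMT1-KD2, a 1.53-fold and a 1.64-fold higher signal. SMARCD3, known for its part in heart and muscle development, read 5.41, 4.85 and 4.66, a change of -0.56 and -0.75. SMARCD2, known from granulocyte development, changed by -0.42 and -0.45. Thus the knockdown arrays both lay above NC for SMARCD1 and below NC for its paralogs, although in PRMT1-KD1 the paralogs turned positive with spike-in scaling.

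The BCL7 proteins are small accessory subunits of SWI/SNF, and their genes showed the same kind of division. BCL7B read 2.20 on NC, 3.15 on PRMT1-KD1 and 3.03 on PRMT1-KD2, a change of 0.95 and 0.83 log2 units. BCL7A read 1.44, 2.05 and 1.79, which passed 1.5-fold in PRMT1-KD1 (0.62) and not in PRMT1-KD2 (0.35). BCL7C read 3.25, 2.91 and 2.77, a change of -0.34 and -0.49. BCL7B stayed past 1.5-fold in both knockdowns under each of 15 other ways of processing the arrays.

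SMARCC1 and SMARCC2 encode the paired scaffold proteins BAF155 and BAF170. SMARCC2 read 5.10 on NC, 4.73 on PRMT1-KD1 and 4.42 on PRMT1-KD2, a change of -0.37 and -0.68. A dimmer probe of SMARCC2 gave -0.56 and -0.87, on the same side of zero. SMARCC1 changed by 0.14 and 0.35. SMARCC2 passed 1.5-fold in PRMT1-KD2, where SMARCC1 was higher than NC and within 1.5-fold.

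Of the other core genes, SMARCE1, which encodes the DNA-binding subunit BAF57, read 4.47 on NC, 5.15 on PRMT1-KD1 and 4.76 on PRMT1-KD2, so that it passed 1.5-fold in PRMT1-KD1 (0.67) and not in PRMT1-KD2 (0.29). A dimmer SMARCE1 probe stayed within 1.5-fold in both, at 0.15 and 0.26, and the mean over the probes (0.41 in PRMT1-KD1) did not pass. ACTL6A, the actin-like subunit of dividing cells, read 4.34, 4.11 and 3.57, a change of -0.23 and -0.76. Its neuronal counterpart ACTL6B was not well above background on PRMT1-KD1, so that its change of -0.39 there is a bound, and it changed by 0.11 in PRMT1-KD2. SMARCB1, the core subunit lost in rhabdoid tumours, read 5.15, 5.15 and 5.07 and was the steadiest of this group by brightest probes. A dimmer SMARCB1 probe changed by 0.20 and -0.02. In all, 4 of the 12 core and actin-like genes were past 1.5-fold higher in PRMT1-KD1 and none lower, and 2 were higher and 3 lower in PRMT1-KD2.

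Of the 6 subunits that define BAF, 1 was past 1.5-fold in PRMT1-KD1 and none in PRMT1-KD2. ARID1A, the largest BAF subunit and one of the most often mutated remodeler genes in cancer, read 1.39 on NC, 1.38 on PRMT1-KD1 and 1.39 on PRMT1-KD2. Its paralog ARID1B read 1.71, 1.69 and 1.75 at its brightest probe. Dimmer ARID1B probes changed by -0.19 and -0.08, and by -0.33 and -0.11, within 1.5-fold. The histone-binding subunits DPF1 and DPF2 also stayed within 1.5-fold, with a change of -0.01 and 0.03 for DPF1 and of -0.14 and -0.30 for DPF2. DPF3 read -0.75, -0.13 and -0.75, so that it was past 1.5-fold in PRMT1-KD1 (0.62) and level with NC in PRMT1-KD2. SS18, the subunit fused to SSX proteins in synovial sarcoma, lay just under the threshold in PRMT1-KD1 (0.54) and changed by 0.35 in PRMT1-KD2.

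All 4 PBAF genes were above NC in both knockdowns in the reported setting, PHF10 by 0.08 in PRMT1-KD1, and their median change was 0.49 and 0.32. ARID2, which takes the place of the ARID1 proteins in PBAF, read -0.71 on NC, -0.11 on PRMT1-KD1 and -0.06 on PRMT1-KD2, a 1.51-fold and a 1.57-fold higher signal. PBRM1, the polybromo subunit that is often lost in clear cell kidney cancer, read 2.27, 2.86 and 2.59, which was just past 1.5-fold in PRMT1-KD1 (0.59) and within it in PRMT1-KD2 (0.32). A dimmer PBRM1 probe stayed within 1.5-fold in both, at 0.23 and 0.18. BRD7 (0.39 and 0.32) and PHF10 (0.08 and 0.20) stayed within 1.5-fold. ARID2 and PBRM1 lay so near the threshold that their passing it in PRMT1-KD1 did not hold in 7 and 9 of the 15 alternatives.

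BRD9, the bromodomain subunit of non-canonical BAF, read 1.47 on NC, 1.86 on PRMT1-KD1 and 1.87 on PRMT1-KD2 at its brighter probe, a change of 0.40 in either. A dimmer probe, assigned in the files to another transcript of the gene, changed by -0.91 and -0.13. In PRMT1-KD1 the probes of BRD9 thus lay on opposite sides of zero.

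In the ISWI family, the partner subunits BAZ1A and BAZ2A were raised in both knockdowns. BAZ1A (ACF1), which pairs with SMARCA5 in the nucleosome-spacing complexes ACF and CHRAC, read 1.44 on NC, 2.44 on PRMT1-KD1 and 2.53 on PRMT1-KD2. This is 2.12-fold higher in PRMT1-KD2 and nearly as much in PRMT1-KD1, percentile 97.7 and 95.5 of all genes measured, and it passed 1.5-fold under all 15 alternatives in both. BAZ2A (TIP5), the partner of SMARCA5 in the ribosomal DNA silencing complex NoRC, read -0.08, 0.55 and 1.01. It was 1.55-fold higher in PRMT1-KD1 and 2.14-fold higher in PRMT1-KD2, and of the 15 alternatives 12 kept it past 1.5-fold in PRMT1-KD1 and all of them in PRMT1-KD2.

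BAZ1B (WSTF), a SMARCA5 partner active at replicating chromatin, did not follow BAZ1A. It read 4.23 on NC, 3.96 on PRMT1-KD1 and 4.66 on PRMT1-KD2, a change of -0.27 and 0.42. It was the member with the widest difference between the knockdowns, at -0.70 log2 units. A dimmer BAZ1B probe changed by 0.43 in PRMT1-KD1 and by 0.33 in PRMT1-KD2, so the value in PRMT1-KD1 depended on the probe.

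The ISWI enzymes themselves also differed from each other. SMARCA5 (SNF2H), the ISWI motor of dividing cells, read 2.23 on NC, 2.25 on PRMT1-KD1 and 1.77 on PRMT1-KD2, a change of 0.02 and -0.46. A dimmer SMARCA5 probe changed by -0.39 and -0.06. SMARCA1 (SNF2L), its paralog, read 0.01, 0.91 and 0.25, a 1.87-fold higher signal in PRMT1-KD1 and 1.18-fold in PRMT1-KD2. BPTF, the large subunit of the NURF complex, changed by 0.16 and -0.15.

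None of the 8 CHD genes was past 1.5-fold in PRMT1-KD1, and 1, CHD6, was lower in PRMT1-KD2. CHD4, the main motor of NuRD, read 3.41 on NC, 3.42 on PRMT1-KD1 and 3.54 on PRMT1-KD2. Its paralog CHD3 read 3.42, 3.43 and 3.28. CHD4 and CHD3 therefore lay within 0.14 log2 units of NC on both knockdown arrays. A further NuRD ATPase that is not a member, CHD5, changed by 0.73 and 0.39 at its brightest probe, past 1.5-fold in PRMT1-KD1.

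The remaining CHD genes are mostly linked to transcribed genes and enhancers. CHD1, which acts on chromatin behind elongating polymerase, read 2.64 on NC, 2.12 on PRMT1-KD1 and 2.47 on PRMT1-KD2. CHD2, its paralog, read 3.87, 4.27 and 4.13. CHD1 was thus lower (-0.53 and -0.17) and CHD2 higher (0.40 and 0.27) than NC, both within 1.5-fold. CHD6 read 0.97, 0.72 and 0.32 at its brighter probe, a change of -0.25 and -0.64. A dimmer CHD6 probe changed by -0.47 in PRMT1-KD2 and was not well above background on PRMT1-KD1, where its change of -1.08 is a bound. CHD7, mutated in CHARGE syndrome, read 1.34, 1.49 and 1.43. CHD8, a gene linked to autism, read 3.85, 3.82 and 4.18, and CHD9 read 2.50, 2.01 and 2.15. The latter 3 genes stayed within 1.5-fold in both knockdowns, with CHD9 the lowest at its brighter probe (-0.49 and -0.35). A dimmer CHD9 probe changed by 0.14 and 0.15, on the other side of zero in both.

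In the reported setting the largest change of any member was that of EP400, the ATPase of the TIP60 and p400 complexes that deposit H2A.Z and support histone acetylation. EP400 read -2.23 on NC, -0.47 on PRMT1-KD1 and -1.07 on PRMT1-KD2. The signal was 3.40-fold higher in PRMT1-KD1 and 2.23-fold higher in PRMT1-KD2, and the knockdowns differed by 0.61 log2 units. This placed EP400 at percentile 99.5 and 98.1 of all genes measured. The probe was dim, although above background on every array, and the size of its change rested on the background correction: with normexp the change was 0.66 and 0.41, which no longer passed in PRMT1-KD2 and lay below that of BCL7B (1.00 and 0.80) and BAZ1A (0.90 and 0.96). A gene name of the array next to EP400, EP400NL (EP400P1 in RefSeq, listed as a transcribed pseudogene), had its own probe, which changed by -0.02 and -0.26. Whether the EP400 probe also reads that transcript was not tested.

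The other members of the family moved less. INO80, which gives its complex its name and acts at promoters and replication forks, read -0.53 on NC, 0.23 on PRMT1-KD1 and 0.00 on PRMT1-KD2. Its change was 0.76 and 0.53 at the brighter probe, and 0.35 and -0.06 at a dimmer one. SRCAP, which also deposits H2A.Z, read 0.21, -0.44 and -0.16, a change of -0.65 and -0.38. SRCAP thus lay below NC in both knockdowns and EP400 above it.

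RUVBL1 and RUVBL2 form the ring-shaped AAA+ helicase shared by the INO80, SRCAP and TIP60 complexes. RUVBL1 read 0.90 on NC, 1.20 on PRMT1-KD1 and 0.81 on PRMT1-KD2, and RUVBL2 read 5.27, 5.29 and 5.14. Both stayed within 1.5-fold (0.30 and -0.09 for RUVBL1, 0.02 and -0.12 for RUVBL2).

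The lowered members with values below NC on both knockdown arrays at several probes included ATRX and HELLS. ATRX, which with DAXX deposits histone H3.3 at telomeres and repeats, had a signal of 2.03 on NC, 1.45 on PRMT1-KD1 and 1.22 on PRMT1-KD2 by its brightest probe, a change of -0.59 and -0.81. Another ATRX probe, within the same transcript, gave -0.58 and -0.90, and the last above background gave 0.44 and -0.24. ATRX lay so near the threshold in PRMT1-KD1 that it stayed past it in 9 of the 15 alternatives. The ATRX probes therefore differed in direction in PRMT1-KD1 and shared it in PRMT1-KD2. With scaling to spike-in probes the change of the brightest probe in PRMT1-KD1 was 0.04, where the median of detected genes was 0.58.

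HELLS (LSH), a remodeler needed for DNA methylation of repeats and abundant in proliferating cells, read 2.83 on NC, 1.99 on PRMT1-KD1 and 2.50 on PRMT1-KD2. It changed by -0.84 in PRMT1-KD1, the lowest value of any member there, and by -0.33 in PRMT1-KD2. A dimmer HELLS probe gave -0.69 and -0.31. Both probes placed HELLS past 1.5-fold in PRMT1-KD1 and within it in PRMT1-KD2. In bulk RNA, a lower signal in every cell and a smaller share of cells that express the gene cannot be told apart.

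Where a gene had several probes, these gave a check within each array. Of the 46 members, 17 had several probes above background. All probes of a gene shared their sign in 11 of these genes in PRMT1-KD1 and in 12 in PRMT1-KD2. The median spread between probes of a gene was 0.41 log2 units in PRMT1-KD1 and 0.20 in PRMT1-KD2, and it exceeded 1.5-fold in 6 and 2 genes. The spread in PRMT1-KD1 was thus as large as the median size of a member's change there, 0.39. HELLS, PBRM1, BRD7, SMARCC2 and SMARCE1 were among the genes whose probes stayed on 1 side of zero on both arrays. The remaining 29 members rest on 1 probe above background, BAZ1A, BAZ2A, BCL7B, SMARCD1, ARID2 and EP400 among them.

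**Figure D4:**
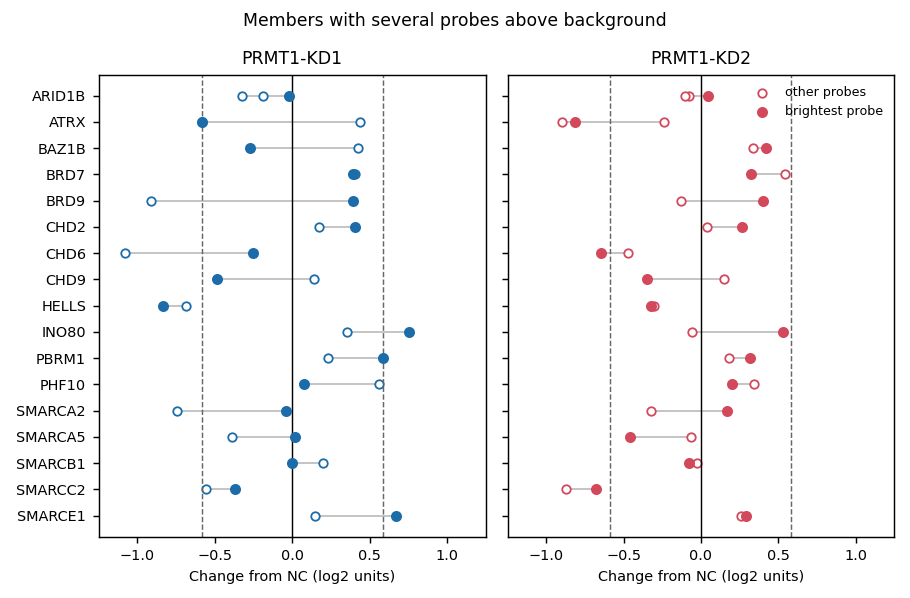
Change from NC, in log2 units, of every probe above background on at least 1 array for the 17 members with several such probes, in PRMT1-KD1 (left) and PRMT1-KD2 (right). Filled circles are the brightest probe, which represents the gene, open circles the others, and dashed lines mark 1.5-fold. The probes of BRD9 and ATRX lie 1.30 and 1.02 log2 units apart in PRMT1-KD1, and the lower CHD6 value there is a bound.

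Differences between related members do not depend on the scaling by a single factor per array, because such a factor cancels out. The 14 groups of related genes were formed after the values had been seen, so their 27 pairs are given as a description. In 7 pairs the changes differed by 1.5-fold or more the same way in both knockdowns, and in no pair did they do so in opposite ways. Both knockdowns were set against the same NC array, which adds to such agreement. No share over other pairs of genes was taken. SMARCD1 rose over SMARCD3 by 1.18 log2 units in PRMT1-KD1 and 1.46 in PRMT1-KD2, and over SMARCD2 by 1.04 and 1.17. BCL7B rose over BCL7C by 1.29 and 1.32, and BCL7A over BCL7C by 0.95 and 0.83. These were the widest of the SWI/SNF contrasts in PRMT1-KD1.

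In the ISWI family the same comparison gave 3 pairs, and each of them no longer passed in both knockdowns with the other detected probe of BAZ1B or SMARCA5, whereas the 4 SWI/SNF pairs rest on 1 detected probe per gene. BAZ1A rose over BAZ1B by 1.27 in PRMT1-KD1 and 0.66 in PRMT1-KD2, or by 0.57 and 0.75 with the other BAZ1B probe. BAZ1B minus BAZ2A was -0.91 and -0.67, or -0.21 and -0.76 with that probe. SMARCA5 minus SMARCA1 was -0.88 and -0.70, or -1.29 and -0.30 with the other SMARCA5 probe. SMARCC1 minus SMARCC2 reached 1.03 in PRMT1-KD2 and 0.51 in PRMT1-KD1, and ARID1A minus ARID1B was 0.02 in PRMT1-KD1 and -0.04 in PRMT1-KD2.

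**Figure D5:**
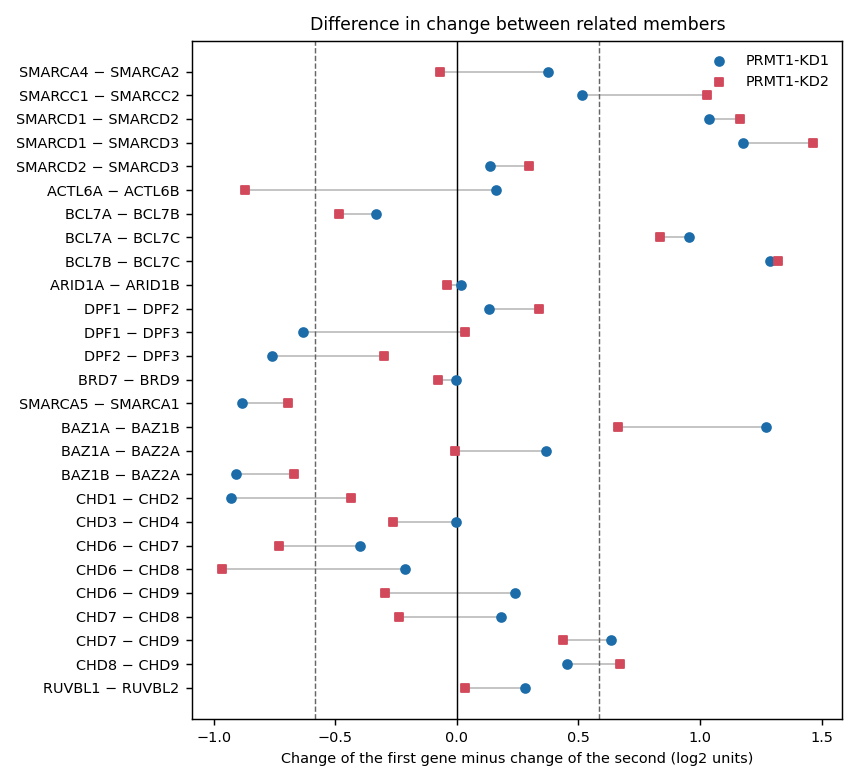
Change of 1 member minus the change of a related member, in log2 units, for 27 pairs in PRMT1-KD1 (circles) and PRMT1-KD2 (squares), with dashed lines at 1.5-fold. SMARCD1 and BCL7B lie far above their paralogs in both knockdowns, while ARID1A minus ARID1B lies at zero. The pair with ACTL6B uses a value limited by background in PRMT1-KD1.

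A further 62 genes, partners in the same complexes and other ATPases of the SNF2 family, were examined by list. Of these, 6 (9.68%) were past 1.5-fold higher in both knockdowns, against 5.0% of all genes, and none was lower in both, against 5.36%. In PRMT1-KD1, 15 (24.2%) were raised, against 13.2%, and in PRMT1-KD2, 8 (12.9%), against 9.56%. Lowered were 0 in PRMT1-KD1, against 12.8%, and 6 (9.68%) in PRMT1-KD2, against 10.7%, a share near that of any gene. Those higher in both were SS18L1 (1.23 and 0.71), a paralog of SS18, GLTSCR1 (0.85 and 0.72), a subunit of non-canonical BAF, GATAD2A (0.67 and 0.60), a NuRD subunit, INO80D (1.30 and 0.88), an INO80 subunit, MEAF6 (0.92 and 0.60), a subunit of histone acetyltransferase complexes including TIP60, and BTAF1 (1.33 and 0.68), an ATPase that removes TBP from DNA. By list, 2 of 5 other SWI/SNF subunits were raised in PRMT1-KD1 and 2 in PRMT1-KD2, with none lowered. Among 13 NuRD genes, 4 were raised in PRMT1-KD1, and 2 were raised and 1 lowered in PRMT1-KD2. Among 24 other INO80, SRCAP and TIP60 subunits, 6 were raised in PRMT1-KD1, and 2 were raised and 2 lowered in PRMT1-KD2. Of the latter list, KAT5, the acetyltransferase of the TIP60 complex with EP400, changed by -0.13 and -1.21.

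Of 5 other ISWI partners, 1 was raised in PRMT1-KD1 (RSF1, 0.98) and 1 in PRMT1-KD2 (CECR2, 0.75). Of 15 other SNF2-family ATPases and partners, 2 were raised in PRMT1-KD1, and 1 was raised and 3 were lowered in PRMT1-KD2. The ATRX partner DAXX was on that list and was not past 1.5-fold in either.

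Promoter sequence was available for 37 of the 46 members. The 250 bases before the start of EP400 and HELLS are shown because they are the members with the largest rise and the largest fall in PRMT1-KD1, from RefSeq on build GRCh38.p14. Capitals mark matches on either strand to motifs picked after the values had been seen: an ETS site (CCGGAAG) in EP400, and an E2F site (TTTNGCGC) and a CCAAT box (ATTGG) in HELLS.
EP400 (chr12:131949692-131949941, plus strand): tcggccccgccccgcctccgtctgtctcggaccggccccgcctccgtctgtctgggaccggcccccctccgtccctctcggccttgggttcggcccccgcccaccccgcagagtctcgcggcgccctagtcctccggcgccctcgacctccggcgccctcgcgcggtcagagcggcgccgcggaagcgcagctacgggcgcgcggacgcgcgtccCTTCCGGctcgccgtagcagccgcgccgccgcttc
HELLS (chr10:94545538-94545787, plus strand): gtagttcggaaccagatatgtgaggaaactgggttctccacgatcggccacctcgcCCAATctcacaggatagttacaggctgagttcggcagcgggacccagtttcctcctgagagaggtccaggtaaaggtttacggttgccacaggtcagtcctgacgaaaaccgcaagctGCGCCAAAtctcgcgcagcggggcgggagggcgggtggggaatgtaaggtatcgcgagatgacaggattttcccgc
The ETS letters were in 8.52% of all 35116 promoters and in 7.02% of the 57 promoters of members. The E2F letters were in 1.51% of all promoters and in 1 member promoter (1.75%), that of HELLS. The CCAAT box was in 32.0% of all promoters and in 36.8% of member promoters, and YY1 letters (AAGATGG) were in 3.70% and 3.51%. Letters of an NRF1 site were in 5.08% of all promoters, in 6.56% of promoters of protein-coding genes and in 12.3% of member promoters, 7 of 57. Median GC content was 67.2% for member promoters, against 58% for all and 62% for those of protein-coding genes. A match is a stretch of letters and not a measured binding site.

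Across the arrays as a whole, 40.8% to 42.5% of 58201 non-control probes were well above background, no spot was saturated, and probes spotted repeatedly had a median SD between spots of 0.038 to 0.049 log2 units. The robust SD of the difference between PRMT1-KD1 and PRMT1-KD2 over detected genes was 0.38. Of the members, 45 were above background on all arrays. The cell type was checked by markers: EPCAM, KRT8, KRT18, KRT19, CDH1, CDX1 and CDX2 were above background on all arrays, while VIL1 and CDH17, which are intestinal markers too, were not on any. Of the immune markers given here, CD3E was not above background on any array, CD14 was on all, and PTPRC was on PRMT1-KD2 alone. COL1A1, VWF, ALB, APOA1 and SNAP25 were also above background on all arrays, and COL1A2, COL3A1, DCN, PECAM1, TTR and SYP were on none.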

How the data were processed

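RNA of 3 HCT116 cultures (NC, PRMT1-KD1 and PRMT1-KD2) was measured on 1-colour Agilent arrays, 1 array per group, grouped by the treatment label. The authors deposited scanner output from Agilent Feature Extraction 10.7.1.1, whose processed signal is a background-corrected fluorescence intensity, not scaled between arrays. The deposited series matrix held intensities that were not log-transformed. Their log2 equalled the log2 of the mean intensity of a probe's spots within 0.001 for 58021 to 58090 of 58201 probes. The column medians were 7.91, 9.74 and 9.43 in units of intensity, so it was not scaled either, and its log2 values served as an alternative.

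Control spots and spots marked as outliers were left out, which dropped 130 probes and left 58071. Spots of a probe were averaged as log2 intensity and the 75th percentile of each array was subtracted. A gene was represented by its brightest probe and was counted where 1 or more of the arrays compared detected that probe well above background. On the other array the lowest signal well above background there served as a floor, and the change is a bound. No level of 1 probe was set against that of another. The threshold was 1.5-fold, as in the study's methods, whose p-value needs replicate arrays. Precision is limited by the number of arrays.

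All members were accounted for, and values per array were given for PRMT1, the ATPases and members past 1.5-fold, and changes for those of the other genes past it in both knockdowns. RSF1, CECR2, KAT5 and CHD5 were named after their values had been seen. Members and lists were chosen with earlier results of these data known, and paralog groups and motifs after the values had been seen. The alternatives were normexp (offset 50), quantile, cyclic loess, other scalings, other probe summaries and filters, and a fold of 2. The counting was tested on simulated data. Normexp and cyclic loess were run with limma 3.58.1 in R 4.3.3, and everything else with pandas 2.3.3 and numpy 2.4.6 in Python 3.11.15. One marker is not reported here.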

Additional observations from a re-analysis of the deposited data

How the results depend on the processing

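With 1 array per group no array could be left out. No paired analysis was possible because each group holds 1 array. In the reported setting, 3 members were lower and 12 higher in PRMT1-KD1, 5 lower and 6 higher in PRMT1-KD2, 1 lower and 6 higher in both, and 4 apart between the knockdowns. Normexp gave 1 lower in PRMT1-KD1 (2.17%, beside 4.99% of all genes) and 7 higher (15.2%, beside 8.64%). It also gave 0 lower and 3 higher in both, 2 apart, and a member median of 0.12 in PRMT1-KD1. Median scaling gave 1 lower in PRMT1-KD1 (2.17%, beside 9.6% of all genes) and 8 lower in PRMT1-KD2 (17.4%, beside 18.1%). It also gave 0 lower in both, 8 apart, and medians of 0.11 in PRMT1-KD1 and -0.055 in PRMT1-KD2, the latter reversed. The percentile over probes detected on all arrays gave 5 lower in PRMT1-KD1 (10.9%, beside 16.4% of all genes) and 6 higher (13.0%, beside 11.0%). It also gave 2 lower and 3 higher in both, and a reversed median of -0.055 in PRMT1-KD1. Spike-in scaling gave 0 lower (beside 1.88% of all genes) and 31 higher (67.4%, beside 49.5%) in PRMT1-KD1. In PRMT1-KD2 it gave 0 lower (beside 3.6%) and 15 higher (32.6%, beside 22.6%). It also gave 0 lower and 14 higher in both, 12 apart, medians of 0.64 and 0.39, and a reversed change of ATRX in PRMT1-KD1 (0.036). The unscaled series matrix gave 0 lower in PRMT1-KD1 (beside 3.58% of all genes) and 3 lower in PRMT1-KD2 (6.52%, beside 7.4%). It also gave 0 lower in both, 10 apart, and medians of 0.41 and 0.20. The members lower in both numbered 2 with the scaled series matrix, with outlier-marked spots kept and with the percentile over probes usable on all arrays, and 0 with the mean or the median over the probes of a gene. A fold of 2 left 0 lower and 1 higher in PRMT1-KD1, 0 lower and 3 higher in PRMT1-KD2, 0 lower and 1 higher in both, and 0 apart. Shares of all genes are not given at that fold, nor under the alternatives for the counts in both and apart. The mean in place of the median was 0.14 in PRMT1-KD1. Quantile normalization gave 8 higher in PRMT1-KD1 (17.4%, beside 12.6% of all genes). Changes relative to genes of like probe GC content and brightness gave 8 higher in PRMT1-KD1 (17.4%, beside 12.2% of all genes). They also gave 3 lower in PRMT1-KD2 (6.52%, beside 9.0%) and medians of 0.13 and 0.17. That alternative and the percentile over probes usable on all arrays were chosen after seeing the data. The cause of these shifts was not tested.

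Dim probes limit the largest values: EP400 was the member that normexp moved most among those raised in both knockdowns. Its change with normexp was 0.66 in PRMT1-KD1 and 0.41 in PRMT1-KD2. The number of arrays limits every value.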
